A study of Homo sapiens with 6 samples.

Results

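SMAD2/3 occupancy early and late after TGFβ stimulation was compared inside Hs578T, an established line of triple-negative breast cancer, by chromatin immunoprecipitation and sequencing (ChIP-seq). The members are all peaks of 2 deposited lists, 1373 at 1.5 h and 1849 at 16 h, or 3222 of the 20600 peaks of the whole series. The other 17378 peaks belong to BT549, a second triple-negative line treated alike, and serve here as a readout that did not form the time classes. They also entered the gap edges named below, which were taken over all 4 lists. Both Hs578T groups were grown in medium with serum and insulin, stimulated with recombinant human TGFβ3 and precipitated with the same antibody lot, which recognises SMAD2 and SMAD3; the dose is not given in the sources used here. Each time has 1 library, so the differences below have no replicate check and carry no test or p-value. The untreated Hs578T sample is input DNA and was not analysed here, so no unstimulated binding was set beside these lists. Peak lists hold no expression, so the cell line label could not be checked against markers.

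SMAD2 and SMAD3 are phosphorylated by the activated TGFβ receptor, join SMAD4 and enter the nucleus. SMAD complexes bind DNA weakly by themselves, at the CAGAC box, and bind most places together with partner factors. Among the genes they switch on are inhibitors of the pathway itself, such as SMAD6, SMAD7, SKIL, PMEPA1 and LDLRAD4, which limit the signal over the following hours.

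Peak positions are on hg19 and counted from 1. A peak was listed at both times when it shared 1 bp or more with a peak of the other list. The score of a peak is the authors' own peak-caller value and starts at 50 in both lists; scores and ranks describe a peak within its own list, and a different rank in lists of unequal length is not by itself a change in binding. Read totals are not in the lists, so depth is unknown, and fewer occupied sites and a shallower library cannot be told apart. Gene names were given to positions from general knowledge of the hg19 map, in whole kb, because no hg19 annotation was used here, so exons, introns and distances to a start are not stated. The intervals given are 95% Wilson intervals and cover counting error only.

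The bases just before the starts of 4 genes show what SMAD boxes look like at loci the results turn on. DDIT4 had a pair of the leading peaks of both lists, SMAD6 had 1 of the strongest early peaks, SKIL went from 1 to 4 listed peaks, and BMPR2 was among the shared sites whose places in the lists lay furthest apart. The sequences are the 250 bases before each RefSeq start on GRCh38, plus strand, 5′ to 3′, at chr10:72273674-72273923, chr15:66701986-66702235, chr3:170357465-170357714 and chr2:202376077-202376326. Capitals mark CAGAC on either strand (GTCTG on the other) and the palindrome GTCTAGAC, 2 SMAD boxes back to back.
DDIT4: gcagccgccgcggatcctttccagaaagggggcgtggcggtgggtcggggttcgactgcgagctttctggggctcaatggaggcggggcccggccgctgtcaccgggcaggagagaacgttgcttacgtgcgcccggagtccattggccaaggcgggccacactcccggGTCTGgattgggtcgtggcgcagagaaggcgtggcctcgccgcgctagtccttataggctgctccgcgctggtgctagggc
SMAD6: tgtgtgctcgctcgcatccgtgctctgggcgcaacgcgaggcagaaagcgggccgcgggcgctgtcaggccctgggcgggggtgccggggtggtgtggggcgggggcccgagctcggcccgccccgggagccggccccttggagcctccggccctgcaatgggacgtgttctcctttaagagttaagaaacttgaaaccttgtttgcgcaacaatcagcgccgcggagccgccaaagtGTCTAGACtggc
SKIL: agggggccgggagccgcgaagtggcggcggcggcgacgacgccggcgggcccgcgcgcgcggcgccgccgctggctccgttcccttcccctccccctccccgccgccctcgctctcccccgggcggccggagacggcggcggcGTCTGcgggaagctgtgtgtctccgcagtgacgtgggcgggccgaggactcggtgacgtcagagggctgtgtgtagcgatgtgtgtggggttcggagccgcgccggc
BMPR2: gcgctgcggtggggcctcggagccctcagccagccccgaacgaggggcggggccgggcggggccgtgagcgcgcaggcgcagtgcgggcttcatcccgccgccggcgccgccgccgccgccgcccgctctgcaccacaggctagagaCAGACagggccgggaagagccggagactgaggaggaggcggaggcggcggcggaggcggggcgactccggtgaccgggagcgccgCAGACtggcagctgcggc

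CAGAC was found 1 time before DDIT4, 1 time before SKIL and 2 times before BMPR2, and 38.0% of 35116 promoters of this length hold it. SMAD6 lacked that 5-base box in this window but held GTCTAGAC near its end, which 64 of the promoters, or 0.182%, hold; this motif was added after the sequence had been seen. GGCGCC, another SMAD-bound sequence, was present before SKIL and BMPR2 and in 16.4% of promoters. The AP-1 letters TGANTCA, the TEAD letters GGAATG and the forkhead letters TGTTTAC were in none of the 4 windows, against 6.57%, 11.9% and 2.98% of all promoters, and the RUNX letters TGTGGT were 1 time before BMPR2, against 10.98%. The hg19 peaks were not laid on these bases, and a match is a description, not a binding site.

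The strongest sites were listed at both times and most weaker ones at 1 time. Of the 1.5 h peaks, 382 were listed again at 16 h (27.8% of 1373), and of the 16 h peaks, 371 had a 1.5 h peak (20.1% of 1849). Joined by overlap, the lists formed 2819 separate regions, of which 350 (12.4%) were listed at both times, 991 (35.2%) at 1.5 h only and 1478 (52.4%) at 16 h only. In 306 of the 350 shared sites 1 peak met 1 peak; 29 held several 1.5 h peaks and 21 several 16 h peaks. The midpoints of the best peaks of a site lay a median of 51.8 bp apart. The 16 h peak was the wider in 285 of the 350 sites, with a median width of 329.5 bp against 203 bp.

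Recurrence fell with rank in both lists. At ranks 1 to 50, 49 of 50 peaks were shared in each list (98.0%, 89.5 to 99.6). At ranks 51 to 100 the share was 98.0% (89.5 to 99.6) for 1.5 h peaks and 86.0% (73.8 to 93.0) for 16 h peaks. Over the next 100 places it was 75% (65.7 to 82.5) and 68.0% (58.3 to 76.3), and over the 100 or so after those, up to rank 300, 44.6% (35.2 to 54.3) and 41.0% (31.9 to 50.8). Past rank 1000 it was 14.7% (11.1 to 19.3) at 1.5 h and 4.95% (3.68 to 6.63) at 16 h. In both lists most of the fall lay between ranks 100 and 500. Peaks at these lower ranks were also narrow: the median width was 470 bp at ranks 1 to 50 of the 1.5 h list and 137 bp past rank 1000.

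**Figure D1:**
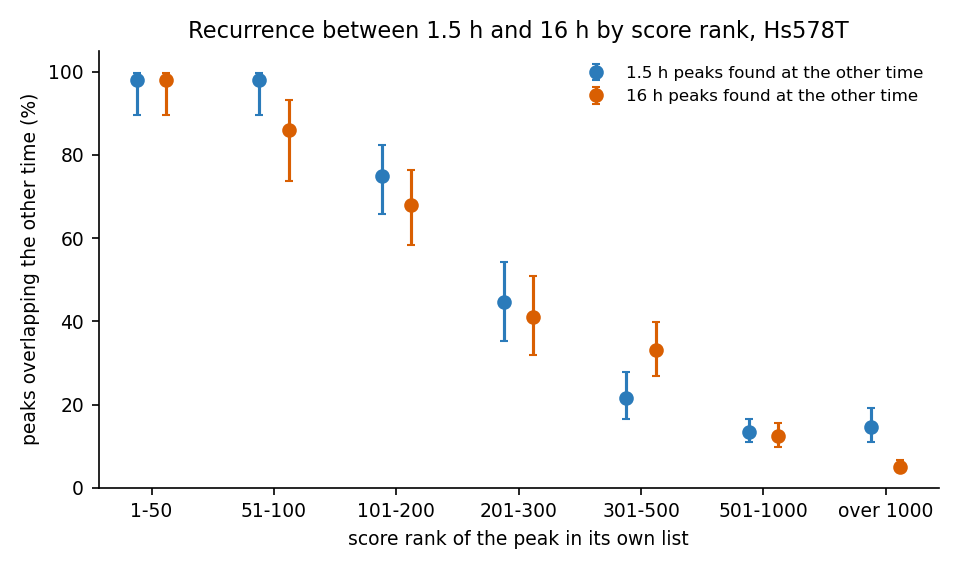
Share of Hs578T peaks overlapping a peak of the other time (y axis, percent) by score rank in the peak's own list (x axis); points are shares and bars are 95% Wilson intervals. At ranks 1 to 50 both shares are 98.0%, and in the band that ends at rank 1000 they are 13.5% at 1.5 h and 12.4% at 16 h.

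The peaks listed once lay near the score floor. Of the 991 peaks listed at 1.5 h only, 91.8% scored under 75, and 78.5% were narrower than 150 bp. Of the 1478 listed at 16 h only, 81.1% scored under 75 and 56.4% were narrower than 150 bp. Shared peaks were under 75 in 43.2% of cases in the 1.5 h list and 24.8% in the 16 h list. Only 18 of the early-only peaks scored 100 or more, against 126 of the late-only peaks. Just 165 peaks of the whole 1.5 h list and 350 of the 16 h list reached that score.

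Of the 10 leading shared sites, 9 were given a locus name, some of them after the positions had been seen. The first site of both lists was in the HOXA cluster, chromosome 7 from 27219472 to 27220309, with a score of 783 at 1.5 h and 1498 at 16 h. The second of both lists was at PRDM16, a zinc-finger regulator of fat and blood stem cell identity, on chromosome 1 from 3309320 to 3310793, with scores of 724 and 1485. DDIT4, a stress-induced inhibitor of mTORC1, had a site from 74020229 to 74021316 on chromosome 10, at rank 5 and rank 3, and another from 74032268 to 74033157, at rank 7 and rank 6. Both DDIT4 sites were also listed in BT549 at both times, whereas the HOXA and PRDM16 sites were in neither BT549 list.

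Next came ZNF503, a transcriptional repressor, on chromosome 10 from 77164565 to 77165470, at rank 6 and rank 9. A site in the HOXD cluster, chromosome 2 from 176968505 to 176969362, was at rank 9 and rank 5. SMAD6, an inhibitory SMAD, held rank 4 at 1.5 h with a score of 658 and rank 12 at 16 h with 675, on chromosome 15 from 66994310 to 66994850. MIR181A1HG, the host transcript of a miR-181 pair, had rank 14 and rank 4, on chromosome 1 from 198904602 to 198905189. A second HOXA site, from 27209635 to 27210302, stood at rank 15 in both lists. A site on chromosome 8 from 37404377 to 37405188, to which no gene was assigned, stood at rank 16 in both. All 10 were within the first 16 places of both lists. The third place at 1.5 h went to a site at SAMD11 and NOC2L, chromosome 1 from 876767 to 877376, with a score of 678; it had 486 at rank 28 in the 16 h list.

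Over all 350 shared sites the scores of the lists ran together loosely, with a Spearman rho of 0.62. This is a description over sites of 1 pair of libraries, all of which had to pass the floor in both. Among the 256 sites that ranked within 300 in at least 1 list, the median difference between the places was 111. The 5 sites placed far higher at 16 h were at chromosome 7 from 33801042 (rank 1329 and rank 83), GYPC on chromosome 2 from 127414786 (1355 and 113), chromosome 7 from 25897078 (1317 and 156), chromosome 7 from 151666493 (1200 and 98) and chromosome 9 from 82061389 (1220 and 179). Their 1.5 h peaks scored 50.4 to 52.8 and so had just passed the floor. GYPC encodes glycophorin C, a membrane protein.

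The 5 sites placed far lower at 16 h had scores of 51.2 to 55.0 in that list. They were at UVRAG, an autophagy gene, on chromosome 11 from 75558734 (rank 202 and rank 1588), at BMPR2, the type 2 BMP receptor, on chromosome 2 from 203240891 (251 and 1561), at SAMD11 and NOC2L on chromosome 1 from 877454 (125 and 1400), at DLG2, a scaffold protein gene, on chromosome 11 from 85194951 (80 and 1346), and at MAPRE2, which encodes a microtubule-binding protein, on chromosome 18 from 32613470 (212 and 1462). In both sets the lower of the paired calls sat next to the floor.

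**Figure D2:**
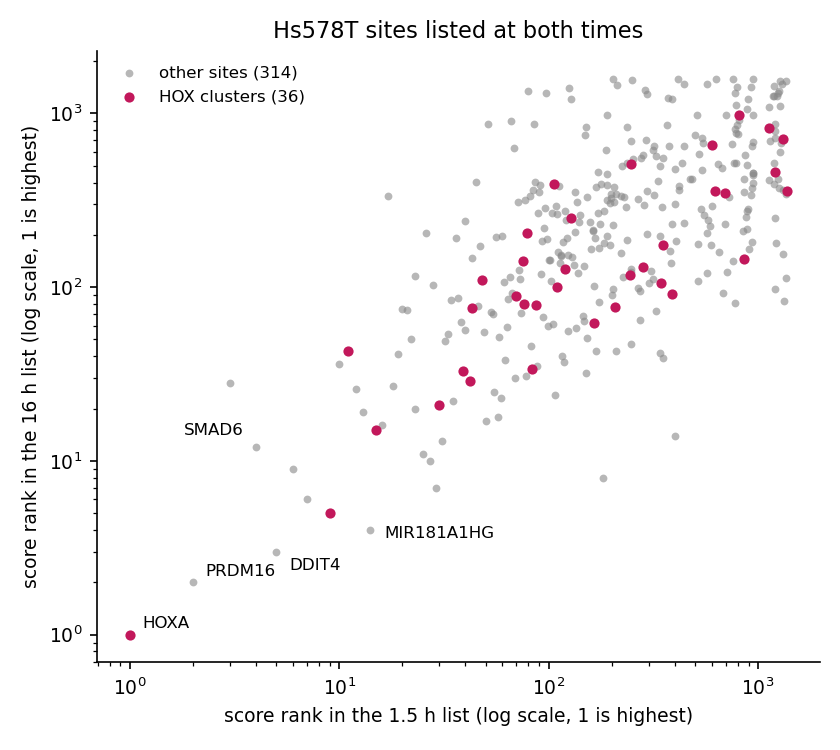
Score rank of each shared Hs578T site in the 1.5 h list (x axis) and the 16 h list (y axis), both on log scales with rank 1 highest; each point is 1 of 350 sites and the 36 in the HOX clusters are coloured. The HOXA and PRDM16 sites hold ranks 1 and 2 of both lists, and the points spread widely beyond rank 100.

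Of the 10 highest late peaks without an early partner, 6 were given a locus name. The first was at LDLRAD4, which encodes a membrane protein that holds back SMAD2/3 activation, at 13447604 to 13448010 of chromosome 18, scoring 380 at rank 48. The second was at SEMA3C, a secreted guidance factor, on chromosome 7 from 80506173 to 80506777, with 367 and rank 53. HIBADH, an enzyme of valine breakdown, had a peak from 27645793 to 27646249 on chromosome 7 with 325. A HOXD peak on chromosome 2 from 177023549 to 177023916 scored 285, and its nearest 1.5 h peak was 0.856 kb away. SETD7, a lysine methyltransferase, had a peak on chromosome 4 from 140476371 to 140476809 with 277, and a HOXA peak from 27179708 to 27180249 on chromosome 7 scored 263.

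No gene was assigned to the remaining 4 of the 10 leading 16 h only peaks. They began at 177312470 on chromosome 1 (score 321), at 50476869 on chromosome 20 (283), and at 77267998 and 29543535 on chromosome 10 (275 and 262). All 10 were 280 to 606 bp wide and none lay at a gap edge. That is here within 1 Mb of the largest stretch of its chromosome without peaks in any Hs578T or BT549 list. None of the 10 overlapped a BT549 peak. Within 20 kb of the named loci BT549 did list peaks at SEMA3C (7 at 1.5 h and 7 at 16 h) and HOXA (2 and 5). It also listed some at LDLRAD4 (1 and 1) and HIBADH (1 and 0), but none at SETD7 or HOXD.

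The leading 1.5 h only peaks were of another kind. Of the 10, 4 lay at a gap edge (on chromosomes 1, 7, 6 and 5), 4 were narrower than 100 bp, and 6 overlapped a BT549 peak. The highest, on chromosome 1 from 121484271 to 121485434, scored 434 at rank 8 and was the single peak of the first 50 with no 16 h partner. Next came chromosome 7 from 61969202 with 182, chromosome 8 from 124667054 with 132, chromosome 1 from 91852783 with 117 and chromosome 6 from 58777061 with 115. The sixth, with a score of 115, was at ZSWIM7, a gene of DNA repair, on chromosome 17 from 15902776 to 15903007. Scores of 113, 113, 112 and 112 followed on chromosome 9 from 128933957, chromosome 13 from 90098723, chromosome 3 from 177077646 and chromosome 5 from 46334251. Apart from ZSWIM7, none of these was given a gene name.

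The HOX genes, which set position along the body axis, held many listed regions, and a larger share of these than of all regions was listed at both times. Of 76 regions listed in the 4 clusters at either time, 36 were listed at both times (47.4%, against 12.4% of all regions), 14 at 1.5 h only (18.4%, against 35.2%) and 26 at 16 h only (34.2%, against 52.4%). By peaks, 42 of 56 at 1.5 h (75%, 62.3 to 84.5) and 40 of 66 at 16 h (60.6%, 48.5 to 71.5) were shared. For peaks elsewhere these shares were 25.8% (23.5 to 28.2) and 18.6% (16.8 to 20.4). Among peaks of 100 or more the clusters shared 20 of 20 at 1.5 h, against 127 of 145 elsewhere, and 27 of 37 at 16 h, against 197 of 313. Under a score of 75 they shared 17 of 28 at 1.5 h (60.7%), against 14.1% elsewhere, and 5 of 17 at 16 h (29.4%), against 6.83%. The clusters were singled out with earlier results of these data known, so these counts describe and do not test them.

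The clusters differed in what they gained. HOXA had 22 listed peaks at 1.5 h and 21 at 16 h, in 23 regions, 13 of them shared. Its 4 regions at 1.5 h only scored at most 60.7, whereas 1 of its 6 late regions reached 263. HOXB had 13 peaks and 20 peaks, in 24 regions with 8 shared. Its 12 late regions had a median score of 101.3; those from 46639872 (223), 46652418 (206), 46667413 (194) and 46648461 (187) on chromosome 17 led them, and its 4 early regions scored at most 65.4. HOXC had 12 and 16 peaks, with 8 of 19 regions shared and a late peak from 54343559 to 54343830 on chromosome 12 at 192. HOXD had 9 peaks at both times, and 7 of its 10 regions were shared.

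At 16 h the shared HOX sites had a median score of 245, against 125 for the other 314 shared sites of that list, and at 1.5 h 117 against 87.2. BT549 listed 5 of the 36 shared HOX sites and 99 of the 314 others. In the HOXD window BT549 listed no peak at either time. The map of the clusters shows that the late HOXB regions lie between and around the shared ones.

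**Figure D3:**
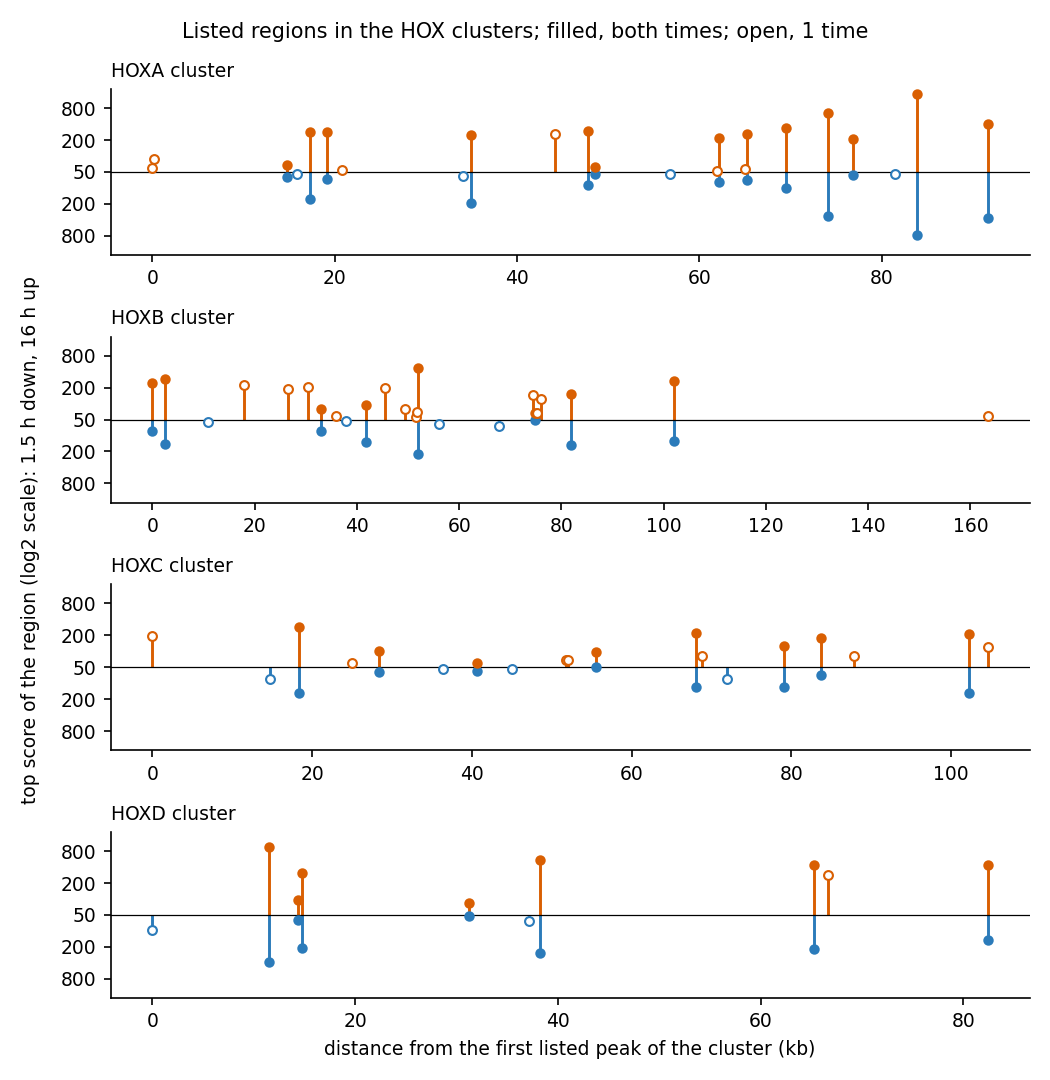
Listed regions in the HOXA, HOXB, HOXC and HOXD clusters by distance from the first listed peak of the cluster (x axis, kb), with the top score of the region on a log2 scale (1.5 h downwards, 16 h upwards from the floor of 50). Filled points are regions listed at both times and open points those listed at 1 time; HOXB shows 12 open late points and HOXD shows 1.

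Gene loci were counted in 13 lists with 132 loci, a peak being counted within 20 kb of the gene. The lists hold genes of the pathway and other sets, such as HOX clusters, YAP-TEAD targets and breast epithelial markers. In all, 27 loci, the 4 HOX clusters among them, had a listed Hs578T peak, 14 at both times, 9 at 16 h only and 4 at 1.5 h only. More peaks were listed at 16 h for 17 of the 27 and fewer for 5. Over all 2431 loci formed by joining peaks less than about 13 kb apart, 54.3% had more peaks at 16 h and 38.3% fewer, with 12.6% listed at both times. The 17 of 27 are to be read beside that background, which comes from a longer late list. The units differ, so it is not a like-for-like rate. Of the 2431 joined loci, 2052 held a single peak and could not be listed at both times. The 27 are windows around genes or whole HOX clusters.

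Among feedback inhibitors 6 of 11 loci were listed, against 27 of 132 over all lists, and the share over all genes was not computed. The 132 were picked by hand and include these 11 and the HOX clusters. A long gene such as LDLRAD4 also has a wider window. The feedback loci had 9 peaks at 1.5 h and 20 at 16 h, while the whole lists held 1373 and 1849. None of the 6 had fewer peaks at 16 h, and a site split into several calls adds to these counts. SMAD6 had 3 peaks at each time, all of them shared. SMAD7, which blocks the receptor, had 3 at 1.5 h and 6 at 16 h; its best peak scored 167 at rank 62 and 433 at rank 38, and its 3 additional late peaks scored 58.5 to 71.2. SKIL, a co-repressor of SMAD complexes, had 1 and 4 peaks within a stretch of 1.61 kb on chromosome 3 from 170074500 to 170076110, with an early score of 70.9 and late scores of 60.6 to 75.7. PMEPA1, which keeps SMAD2/3 from the receptor, had 2 and 3, with a best score of 193 at rank 49 and 364 at rank 55. Its early call from 56285533 on chromosome 20, with 62.05, had no late partner. LDLRAD4 had none and 3, the others from 13221866 and 13222426 on chromosome 18 with 127 and 147. SMURF2, a ubiquitin ligase for the receptor, had a single late peak at 59.4. SKI, SMURF1, TGIF1, TGIF2 and BAMBI had no listed peak.

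All 3 ID loci with peaks had 2 at each time. ID genes encode inhibitors of helix-loop-helix factors. ID3 had its best peak at 159 and 228, ID1 at 73.4 and 102, and ID2 at 71.2 and 114, and ID4 had no listed peak. Both ID1 sites, from 30192003 and 30196227 on chromosome 20, lay at a gap edge. Their numbers of listed peaks were the same at both times, but at ID2 the places differed. Its 2 early calls, from 8821374 and 8821548 on chromosome 2, overlapped 1 late call. The other late ID2 peak, from 8819296 with 94.7, had no early partner.

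Over all 13 lists 27 of 132 loci had a listed peak, and the share over all genes was not computed. The counts of every list are therefore given as a description. Of 23 matrix and protease loci, COL1A1 had a late peak at 57.1, and SERPINE2 and PLAUR had early peaks at 54.9 and 56.4. Of 9 loci of transcription factors for epithelial to mesenchymal transition, ZEB2 had 1 peak and 2 peaks. Of 9 AP-1 loci, JUN and ATF3 had a peak, both at 16 h only, with 67.1 and 87.5. Of 7 YAP-TEAD targets, AXL, a receptor kinase, alone had a peak, at 16 h with 91.6. Of 8 cytostatic loci, GADD45B, a growth arrest gene, alone had a peak, at 16 h with 67.0. Of 8 contractile and cytoskeleton loci, VIM, the vimentin gene, alone had a peak, at 16 h on chromosome 10 from 17270344 to 17270662 with 155. Of 21 ligand, receptor and SMAD loci, TGFBR3 alone had a peak, at 16 h with 59.7, and none of the 10 secreted metastasis factor loci had one.

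FOXP1, a forkhead repressor, had a shared site at rank 50 at 1.5 h and rank 17 at 16 h, with scores of 191 and 604, and a second peak at 16 h only with 143. FOXO3 had an early peak at 50.5. These were 2 of 8 RUNX and forkhead loci, and RUNX1, RUNX2 and RUNX3 had no listed peak. Among 10 breast epithelial marker loci, GATA3 had 1 and 2 peaks, ESR1 had 1 early peak at 51.4, and the others had none. In the same windows the BT549 lists placed peaks at 93 of the 132 loci, including 10 of the 11 feedback loci and 17 of the 23 matrix and protease loci. The Hs578T lists are shorter, and an unlisted locus is not shown to be unbound.

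**Figure D4:**
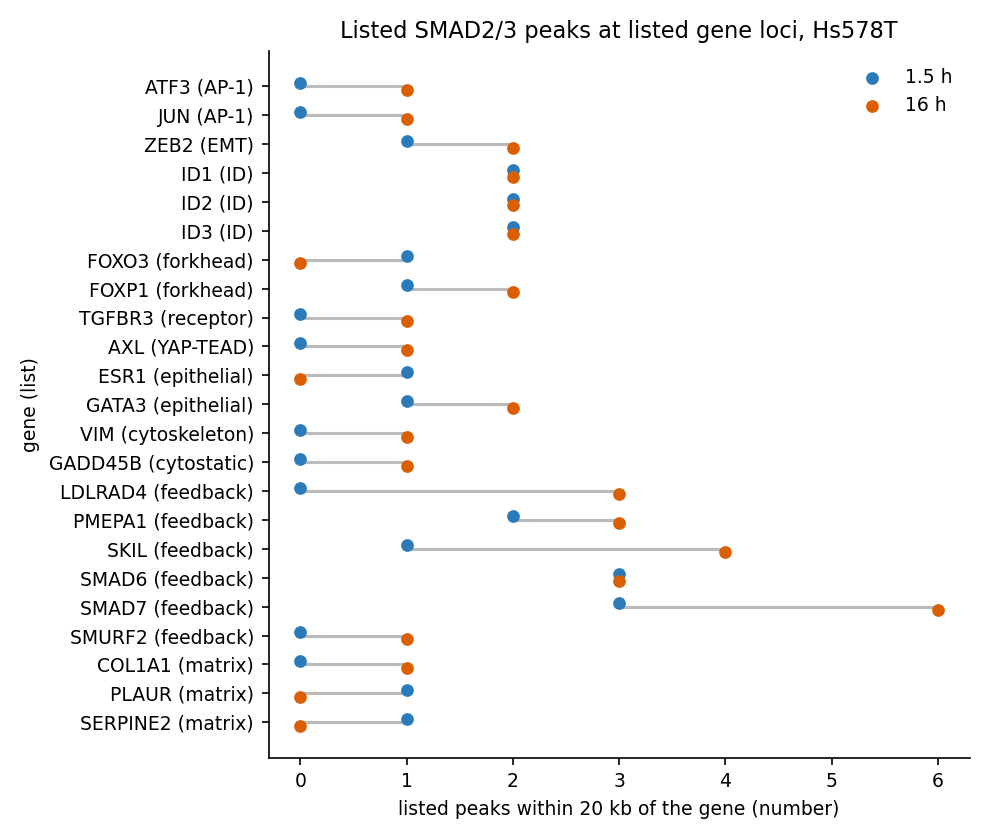
Number of listed Hs578T peaks within 20 kb of each gene of the lists that had any (x axis), at 1.5 h and 16 h; the gene's list is in brackets and HOX clusters are left out. SMAD7 moves from 3 to 6, SKIL from 1 to 4 and LDLRAD4 from 0 to 3, while ID1, ID2, ID3 and SMAD6 have equal numbers.

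The joined loci with the largest gains of listed peaks were counted over the whole genome, and most of those that gained 3 or more were given no gene name. The counts are of listed calls, so a site split into several calls adds to them. After HOXB (6 more within its joined stretch, from 12 to 18), ZNF608, a zinc-finger gene, went from 0 to 5 in the stretch on chromosome 5 from 124070775 to 124081983, with a best score of 122; its 1 early peak lay outside that stretch, at 123964983, with 52.7. HES1, a repressor in Notch signalling, went from 2 to 6 on chromosome 3 from 193851607 to 193858924, with best scores of 230 and 403 at different sites. The site from 193858374 had 230 and 284, and that from 193852652 had 99.15 and 403. DLX1 and DLX2, a pair of homeobox genes, went from 2 to 5 on chromosome 2 from 172961631 to 172967547. Their best score was 213 at rank 43 at 1.5 h and 202.5 at rank 148 at 16 h. Other loci, SKIL and MSI2 among them, also gained 3. The 3 DLX calls without an early partner scored 55.0 to 67.3.

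The largest losses were 3 peaks. The joined HOXA stretch from 27169624 to 27227799 went from 18 to 15 while its best site led both lists. That stretch held 3 regions listed at 1.5 h only and 3 at 16 h only, so no region was lost on balance. Its lower count came from shared sites called as several peaks at 1.5 h: those from 27183386 and 27205102 had 2 early calls and 1 late call each, and that from 27200821 had 3 and 1, while that from 27227214 had 1 and 2. The SAMD11 and NOC2L stretch on chromosome 1 from 871055 to 880209 went from 11 to 8 within 9.16 kb. There 3 early calls, scoring 54.6 to 73.0, had no late partner, 1 late call had no early partner, and 1 shared site had 2 early calls and 1 late call. ZNF703, a zinc-finger gene amplified in some breast cancers, went from 5 to 2 on chromosome 8 from 37549109 to 37561316, its lost calls scoring 51.7 to 66.0 while the site from 37560857 ranked 35 and 22. A stretch on chromosome 17 from 79361186 to 79371584 went from 3 to 0, with a best score of 86.7.

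Among the loci with most peaks, HOXA made up a pair (33 and 8 peaks over both times), followed by HOXB (30), HOXC (24), SAMD11 and NOC2L (19), BCOR (13), ZNF503 (11), HES1 (8) and a stretch on chromosome 10 from 102413572 to 102415386 (8). BCOR encodes a co-repressor. All but 1 of the 41 loci with 5 or more peaks over both lists were listed at both times; this count rises with the number of peaks by construction. Single peaks made up 2052 of the 2431 loci.

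A larger share of late-only than of early-only peaks lay close to a shared site. Within 10 kb of a shared site lay 130 of the 1478 16 h only peaks (8.80%, 7.46 to 10.3) and 40 of the 991 1.5 h only peaks (4.04%, 2.98 to 5.45). Within 1 kb the counts were 72 (4.87%) and 19 (1.92%). For scores of 100 or more, 22 of 126 late-only peaks (17.5%, 11.8 to 25.02) and 0 of 18 early-only peaks (Wilson upper bound 17.6%) lay within 10 kb. Under a score of 75 the shares were 6.51% (5.25 to 8.05) and 3.63% (2.59 to 5.05). Of the peaks of 100 or more, 10 of the 126 late-only and 0 of the 18 early-only lay in the HOX clusters. Some of those 10 were within 10 kb of a shared HOX site. A call split off beside a shared peak also counts as close. The shares without HOX clusters or such calls were not computed. The median distance to a shared site was 2740 kb for late-only and 3472 kb for early-only peaks, so most of either class lay far from any.

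BT549, whose lists did not enter the classes, held a larger share of the shared Hs578T peaks than of those listed once, over all scores; among early peaks of 100 or more the order was the opposite. Of the shared peaks of the 1.5 h list, 104 of 382 (27.2%, 23 to 31.9) overlapped a BT549 peak of either time, and of those of the 16 h list, 106 of 371 (28.6%, 24.2 to 33.4). Of the peaks at 1.5 h only, 85 of 991 did (8.58%, 6.99 to 10.5), and of those at 16 h only, 149 of 1478 (10.1%, 8.65 to 11.7). Among peaks scored 50 to 75, 23.6% (17.8 to 30.7) of the shared and 7.47% (5.94 to 9.37) of the early-only peaks of the 1.5 h list were in BT549. For the 16 h list these were 28.3% (20.1 to 38.2) and 7.68% (6.30 to 9.33). The shared peaks were thus in BT549 more often than the others also within this band. The band fixes the score in 1 list only, and widths were not matched within it. A shared peak can score far higher at the other time, as on chromosome 19 from 52193543 (68.3 at 1.5 h and 654 at 16 h). At scores of 75 to 100 the shares were 24.3% and 11.1% in the 1.5 h list. In the 16 h list they were 25.5% (15.8 to 38.3) and 22.1% (16.3 to 29.3). For widths of 150 bp or more they were 26.3% (21.4 to 31.7) and 19.2% (14.5 to 25.1) at 1.5 h. At 16 h these were 26.2% (21.7 to 31.3) and 13.3% (10.9 to 16.2). Narrower peaks had 29.8% and 5.66% at 1.5 h, and 44.7% and 7.56% at 16 h.

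At scores of 100 or more, 48 of the 147 shared peaks of the 1.5 h list were in BT549 (32.7%, 25.6 to 40.6), and 66 of the 224 of the 16 h list (29.5%, 23.9 to 35.7). Of the 18 early-only peaks, 10 were in BT549 (55.6%, 33.7 to 75.4), and of the 126 late-only peaks 23 were (18.3%, 12.48 to 25.9). Gap-edge places made up 5 of the 18 and 1 of the 126. Without them the shares were 6 of 13 (46.2%, 23.2 to 70.9) and 22 of 125 (17.6%, 11.9 to 25.2). By BT549 time, the early-only peaks overlapped the BT549 1.5 h list in 6.76% and the 16 h list in 5.85%, and the late-only peaks in 7.58% and 7.37%.

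**Figure D5:**
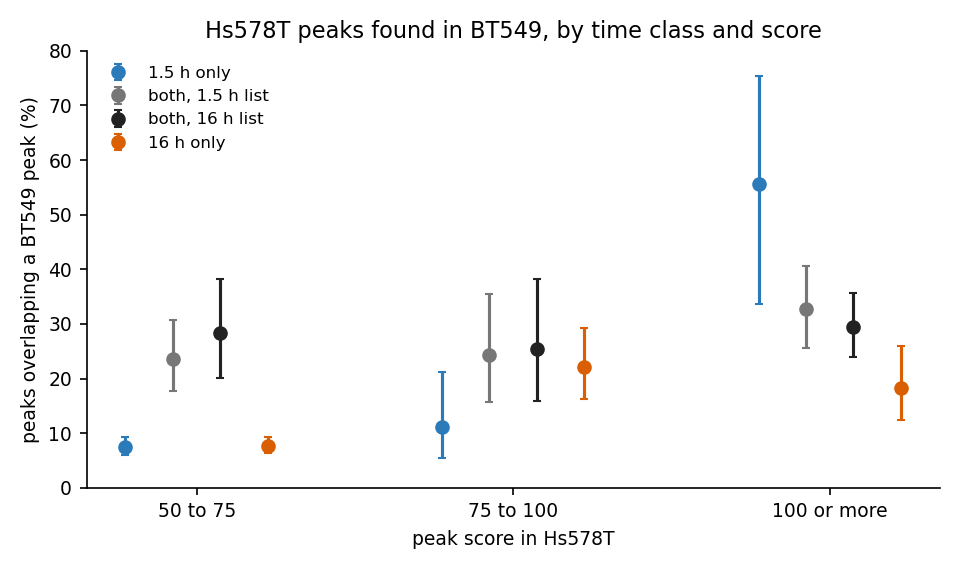
Share of Hs578T peaks overlapping a BT549 peak of either time (y axis, percent) by score band in Hs578T (x axis) and time class; points are shares and bars are 95% Wilson intervals. In the band 50 to 75 the shared peaks lie at 23.6% and 28.3% and the single-time peaks at 7.47% and 7.68%.

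Recurrence also varied along the genome. Chromosome 7 had the highest share of 1.5 h peaks listed again, 46 of 98 (46.9%, 37.4 to 56.7), followed by chromosome 8 with 22 of 54 (40.7%, 28.7 to 54.0) and chromosome 2 with 38 of 97 (39.2%, 30.1 to 49.1). Without the HOXA cluster chromosome 7 stood at 28 of 76 (36.8%). Chromosome 13 was the lowest of those with listed repeats, at 7 of 52 (13.5%, 6.68 to 25.3). More peaks were listed at 16 h than at 1.5 h on 22 chromosomes.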

How the data were processed

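Per the labels, SMAD2/3 ChIP-seq was done in Hs578T and BT549 stimulated with TGFβ3 for 1.5 h or 16 h, with 1 library per line and time; 2 input DNA samples were not analysed here. The submitters' processing notes name Bowtie 1.1.0, Picard and MACS 1.4.2 and the build hg19. The deposited lists give each peak's position and score, which the authors' peak caller assigned; no source used here gives the role of each tool, the filters or the depth. Starts were read as 0-based and printed from 1.

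Overlap of 1 bp or more, ranks within a list, merged regions and joined loci were computed with Python 3.11.15, numpy 2.4.6, pandas 2.3.3 and scipy 1.17.1; figures used matplotlib 3.10.9. In a test on simulated data, 200 of 200 planted overlaps were recovered, with 0 false ones. Alternatives changed the score limit, overlap, list length, gap edges, narrow peaks and distances.

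No hg19 annotation was used. Positions of the 132 listed loci were written from general knowledge in whole kb; 40 further labels were added after the positions of named sites had been seen. All 176 symbols were on the same chromosome in RefSeq, and 145 of 145 neighbouring pairs were in the same order on GRCh38; this checks order, not position. Named sites were the 10 leading shared sites by the worse rank, the 10 highest peaks of each time alone, the 5 most different in rank each way, the 10 loci with most peaks and the 5 with the largest gain and loss. Some items that these rules select are not reported here. Members, lists and rules were chosen with earlier results of these data known.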

Additional observations from a re-analysis of the deposited data

Results flagged for a closer look

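The number of listed peaks moved in opposite directions between the lines. The ratio of 16 h to 1.5 h peaks was 1.35 in Hs578T and 0.884 in BT549. With 1 library per line and time the difference was not tested, and depth cannot be told apart from binding here.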

How the results depend on the processing

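No paired analysis was possible because each time has 1 library and no test was made. With scores of at least 100, the lists held 165 peaks at 1.5 h and 350 at 16 h. There 7 dense loci were listed at both times. Of 14 gene loci, 10 had more and 0 fewer late peaks, to be read beside that longer late list. No like count over all joined loci is given at this limit. The share of 1.5 h peaks listed at 16 h was then 78.2% and the reverse share 37.7%. The time classes were formed anew under each setting, here after both lists were cut at 100. A 1.5 h only peak could thus overlap a 16 h peak under 100, and the reverse. The shares in BT549 were 19 of 36 (52.8%) for 1.5 h only and 50 of 218 (22.9%) for 16 h only. These are not the classes of 18 and 126 peaks given above. With 50% of both peaks covered, these shares were 16.3%, 12.1%, 4.96% and 6.4%, that of shared peaks in BT549 was 18.3%, and rho was 0.79. Without peaks under 150 bp they were 54.8%, 28.0%, 19.8% and 14.2%. The share of 16 h peaks was 23.9% within 500 bp and 25.6% with equal numbers. Gene loci with fewer late peaks were 3 within 5 kb; within 100 kb, 28 had more and 9 fewer. Stricter limits and wider windows change which peaks enter by construction; beyond that the cause was not tested. Leaving out gap edges or chromosome Y moved none of the shares beyond its interval. The planned gene distances on an hg19 annotation and motif windows on an hg19 genome were not run; the gene counts here rest on hand-written positions.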
